A study of Danio rerio with 12 samples.

Results

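The change in RNA abundance from 1 to 6 h post fertilization (hpf) was followed in MZznf598 zebrafish embryos, which lack functional Znf598 of maternal and of zygotic origin. The members are the genes with over 1 CPM, a count relative to the size of its library, in at least 3 of the 6 MZznf598 libraries, and 14955 of the 25432 genes in the tables met this rule. The third-highest of the 6 unscaled values was 1.02 CPM for plcl2 and si:ch211-130h14.4, just inside the limit, and 0.997 CPM for klf7 and nfasc, just outside it. The series holds 12 libraries of total RNA from pooled embryos, with ribosomal RNA removed and without selection for poly(A) tails. Wild-type embryos of the AB strain and MZznf598 embryos were sampled at 1 and 6 hpf with 3 libraries per group. The MZznf598 embryos came from homozygous mothers and fathers of 1 mutant line, which carries a small deletion that shifts the reading frame within the RING domain of Znf598. The labels name no transgene or treatment for any group. The line has 1 allele, so an effect of this allele and of other differences between the line and AB cannot be told apart.

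Znf598 is a ubiquitin ligase that marks ribosomes which have collided on an mRNA. In the first hours of zebrafish development the embryo lives on mRNA laid down in the egg, and the maternal-to-zygotic transition (MZT) then removes much of this mRNA while the zygotic genome is switched on by factors such as Pou5f3, Nanog and the SoxB1 proteins. At 1 hpf the embryo cleaves and transcribes very little, and at 6 hpf it gastrulates, with a dorsal organizer, an enveloping layer (EVL) on its surface and a yolk syncytial layer (YSL) beneath. The values below are CPM after trimmed-mean (TMM) scaling of the libraries, changes are log2 fold changes of 6 over 1 hpf with their standard error (SE), and a gene was called when its adjusted p in edgeR's quasi-likelihood test, paired by replicate number, was below 0.01. A value of CPM is relative to the other RNA in the library, so less of an RNA per embryo and more of the others cannot be told apart, and neither can fewer cells of a type and less RNA per cell.

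With n = 3 per stage, a MZznf598 library held 11374921 ± 944834 (SD) counts at 1 hpf, and at 6 hpf it held 8038049 ± 671793. The 10 genes with the most counts took 1.56% to 1.60% of a library at 1 hpf and 4.82% to 4.87% at 6 hpf. A floor of 3 counts corresponded to at most 0.237 CPM at 1 hpf and 0.500 CPM at 6 hpf, and folds against a group at or under 3 counts in each library are given as bounds from this floor, which covers counting error only. The wild-type libraries with replicate number 3 stood apart from the other wild-type libraries, with a chi-square per degree of freedom of 13.7 to 19.9 against them. The MZznf598 replicates differed from each other by 2.59 to 5.20. Counts that rest on wild type are therefore also given without those libraries. Nothing in the labels says which pools came from separate crosses, so p-values cover only the spread between these libraries. The MZznf598 fit left 2 residual degrees of freedom, beside a median of 17.72 borrowed across genes. Its p-values thus rest largely on spread pooled over genes.

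The targeted gene, znf598 (ENSDARG00000014945), was looked at before the others. Its level was 3.54, 3.65 and 3.40 CPM at 1 hpf and 9.34, 10.5 and 8.14 CPM at 6 hpf in MZznf598. Wild type had 131, 142 and 128 CPM at 1 hpf and 113, 104 and 63.8 CPM at 6 hpf. The mRNA was thus low in each MZznf598 library at both stages. The stages did not overlap in MZznf598, which also held for 42.7% of all genes in this direction. It rose by 1.40 ± 0.19 (adjusted p = 7.34e-07) in MZznf598, while the change in wild type was -0.55 (adjusted p = 0.0258) and was not called. The interaction, which is the MZznf598 change minus the wild-type change, was 1.94 ± 0.25 (adjusted p = 0.013) and missed the threshold. It was called, at a like size, with the other scalings (adjusted p = 0.00618 to 0.00892), without the block (0.00464), without the abundance filter (0.00119) and with DESeq2 (3.12e-07).

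Most of the transcriptome changed between the stages. Of the 14955 genes, 6085 rose (40.7%) and 6063 fell (40.5%), so that 81.2% were called and 2807 were not. At least 2-fold rises numbered 4096 (27.4%) and at least 2-fold falls 4227 (28.3%). The libraries of the stages did not overlap for 6392 genes that were higher at 6 hpf (42.7%) and 6483 that were lower (43.4%). As fitted, the distribution was skewed in size rather than in number. A rise of at least 16-fold was fitted for 1607 called genes and of at least 64-fold for 999, whereas 98 called genes fell at least 16-fold and 4 at least 64-fold. Of all called rises, 1593 were of genes over 1 CPM in the 3 libraries at 6 hpf and in none at 1 hpf. These genes had to differ, and their folds rest on low counts at 1 hpf. Their share of the large rises was not counted, so the skew is a description of the fit. The median called rise was 1.62 and the median called fall was -1.45 on the log2 scale. The even split depends on the scaling. With library totals alone, the median of all genes moved from -0.03 to -0.59 and 4382 genes rose against 8102 that fell, which is 35.1% of calls upward against 50.1% with TMM.

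**Figure D1:**
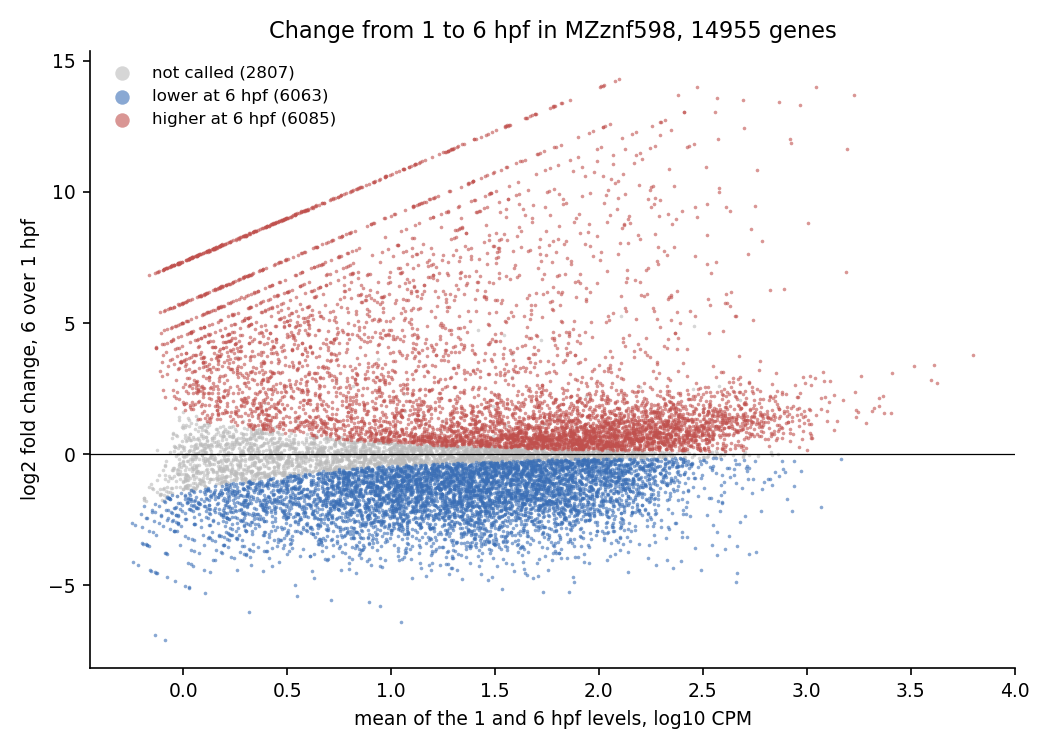
Log2 fold change from 1 to 6 hpf in MZznf598 (vertical axis) against the mean of the 1 and 6 hpf levels in log10 CPM (horizontal axis) for 14955 genes, each a point. Of these, 6085 points are red (called higher at 6 hpf), 6063 are blue (called lower) and 2807 are grey. The oblique lines of red points at the top are genes with 0 or a few counts at 1 hpf.

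Of 11610 genes over 1 CPM in all 6 libraries, 4196 rose (36.1%) and 5169 fell (44.5%). A further 1595 genes were over 1 CPM in the 3 libraries at 6 hpf and in none at 1 hpf, and 611 were over 1 CPM in the 3 libraries at 1 hpf and in none at 6 hpf. Since the rule lets these genes in through 1 stage, they had to differ, and their calls (1593 up and 482 down) are no result of their own. Among called genes, 973 rises started from at most 3 counts in every 1 hpf library, and 337 of these from 0 counts in all of them. Complete loss was rare, as 134 called falls ended at no more than 3 counts in every 6 hpf library and 2 ended at 0 counts in all of them. The genes that fell held 48.0% to 48.2% of the counts of a 1 hpf library and 13.7% to 14.2% of those of a 6 hpf library. The genes that rose held 41.5% to 41.7% at 1 hpf and 78.4% to 78.9% at 6 hpf.

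Maternal clearance was described first through genes of the egg. Of 32 tested oocyte and egg factors, 26 fell (81.2%) and 2 rose (6.25%), beside 40.5% and 40.7% of all genes. The median was -1.55 against -0.03 for all genes. buc, which organizes the germ plasm of the oocyte, had 753, 778 and 720.4 CPM at 1 hpf and 58.7, 57.5 and 68.8 CPM at 6 hpf. bmp15, a growth factor of the oocyte, had 162, 161 and 159.6 CPM at 1 hpf and 8.84, 8.19 and 10.6 CPM at 6 hpf. All 6 values of each gene kept the stages apart, as for 43.4% of all genes in this direction. The changes were -3.60 ± 0.07 (adjusted p = 3.81e-17) for buc and -4.12 ± 0.09 (adjusted p = 3.19e-20) for bmp15. btg4, an adaptor of the deadenylase complex known for clearing maternal mRNA in the mouse, had a change of -4.85 ± 0.17 (adjusted p = 2.99e-08), from 147 ± 12.2 to 5.09 ± 1.88 CPM (SD, n = 3). Smaller changes were measured for an egg coat gene and for maternal regulators. The change was -2.07 for zp3b, an egg coat protein, -1.14 for zar1, an oocyte RNA-binding protein, and -0.70 for gdf3, the maternal partner of Nodal ligands. The list's members that rose do not act only in the egg. ybx1, an RNA-binding protein that packages mRNA, rose by 2.90 ± 0.04 (adjusted p = 9.23e-23), and stm, known as starmaker of the otolith, by 13.69 ± 0.23.

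The 6 falls with the lowest adjusted p, all at least 2-fold and without overlap between the stages, were of mRNAs for proteins of varied function. mid1ip1l, known for its role in the cytoskeleton of the early embryo, had 1072, 1093 and 1027 CPM at 1 hpf and 87.2, 77.2 and 77.7 CPM at 6 hpf. kpna7, an importin alpha of the oocyte, had 469.5, 493 and 439.9 CPM at 1 hpf and 27.5, 27.6 and 28.9 CPM at 6 hpf. nin, which encodes the centrosomal protein ninein, had 671, 641 and 657 CPM at 1 hpf and 80.7, 83.5 and 84.8 CPM at 6 hpf. Lack of overlap between the stages was a condition for picking these and phex, cldnd and zgc:153345. Of all genes, 43.4% were lower at 6 hpf without overlap. The 6 changes ran from -2.98 for nin to -4.47 for zgc:153345 (adjusted p of 3.70e-23 to 1.12e-21). Among genes that started at 10 CPM or more, the falls of largest fitted fold were of osm, which encodes the cytokine oncostatin M, and of paqr5 (ENSDARG00000041145), btc, foxr1 and pld1 (ENSDARG00000056228). osm had 23.1, 20.3 and 23.0 CPM at 1 hpf and 0.333, 0.146 and 0.286 CPM at 6 hpf, so it fell below the floor, and its level was at least 44.3-fold lower at 6 hpf. paqr5, btc and foxr1 ended at the floor too, with bounds of 34.6-fold, 30.7-fold and 20.1-fold, so the place of these 3 among the largest falls rests on the fit. The largest falls in CPM, a difference that also scales with transcript length, were of dnmt1, hspa5, mid1ip1l, cldnd and cldng. dnmt1, the maintenance DNA methyltransferase, went from 1870.2 ± 56.9 to 467 ± 20.6 CPM, and hspa5, the endoplasmic reticulum chaperone BiP, from 1379 ± 82.9 to 312 ± 20.4 CPM (SD, n = 3).

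**Figure D2:**
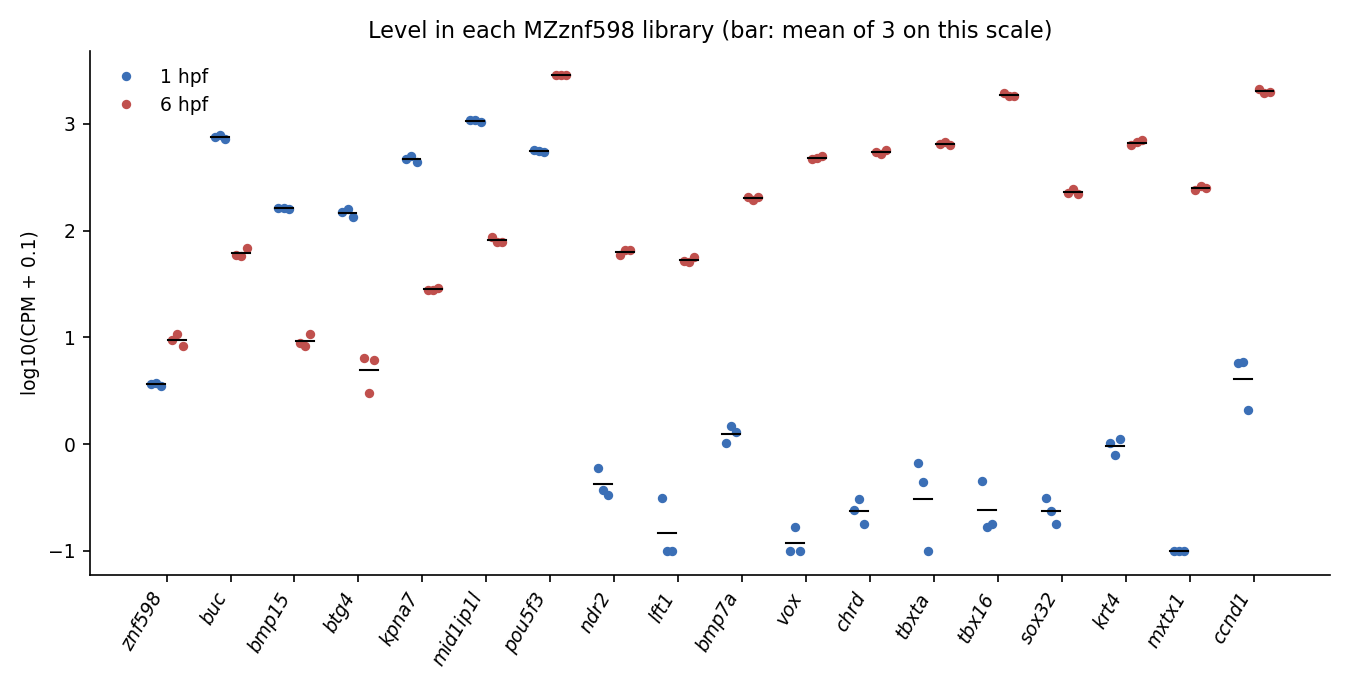
Level of 18 genes in each MZznf598 library as log10(CPM + 0.1), with 3 blue points at 1 hpf, 3 red points at 6 hpf and a bar at their mean on this scale. The stages do not overlap for any of them, as for 42.7% of all genes (higher at 6 hpf) and 43.4% (lower). The spread within a stage is widest for genes with few counts, such as lft1 and tbxta at 1 hpf.

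Germ plasm mRNAs, which are inherited by the primordial germ cells, fell for 17 of 23 tested members (73.9%) and rose for 6 (26.1%). Their median was -1.49. Of all genes, 40.5% fell and 40.7% rose. nanos3, which the germ cells need to survive, had 98.8, 120.2 and 85.0 CPM at 1 hpf and 18.2, 23.3 and 19.0 CPM at 6 hpf. tdrd7a and dnd1 fell, with changes of -1.49 ± 0.06 and -2.22 ± 0.08 (adjusted p = 9.63e-16 and 1.57e-16), and dazl and tdrd6 had changes of -2.75 and -2.76. The carbonic anhydrase gene ca15b fell, with a change of -3.59 (adjusted p = 1.12e-05). ddx4, the vasa helicase, and celf1 moved the other way, by 0.45 ± 0.05 and 0.47 ± 0.05 (adjusted p = 2.17e-08 and 8.44e-09), but these 2 changes were -0.11 and -0.09 with library totals, so their direction rests on the scaling. The tables hold 2 genes of the symbol cxcr4, the chemokine receptor by which germ cells migrate. ENSDARG00000041959 rose by 4.40 ± 0.06 and ENSDARG00000057633 by 7.08 ± 0.09.

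Among 22 tested activators of the zygotic genome, 15 rose (68.2%) and 6 fell (27.3%, median 0.73), beside 40.7% and 40.5% of all genes. With library totals 12 rose and 8 fell (median 0.17), beside 4382 and 8102 of all genes (median -0.59). pou5f3, a pioneer factor, had 562, 557 and 541 CPM at 1 hpf and 2828, 2882 and 2833 CPM at 6 hpf. It was higher in each 6 hpf library, by 2.36 ± 0.04 (adjusted p = 4.00e-22). sox19b, the maternal SoxB1 factor, had 617, 611 and 596 CPM at 1 hpf and 168, 173 and 178 CPM at 6 hpf, a change of -1.82 ± 0.05. The other SoxB1 genes started near 0. sox19a had 0.071, 0 and 0.079 CPM at 1 hpf and 306, 301 and 300.1 CPM at 6 hpf, and sox3 and sox2 rose by 10.15 ± 0.13 and 9.73 ± 0.17. Neither sox19a nor sox2 was over 1 unscaled CPM in any library at 1 hpf. Both passed the limit only through 6 hpf, so their calls are no result of their own. nanog changed little, by 0.29 ± 0.05 (adjusted p = 9.26e-06), and the sign turned with library totals (-0.27). foxh1, the partner of Smad2 in Nodal signalling, rose by 2.32 ± 0.05, while maternal eomes (ENSDARG00000006640), a T-box factor, fell, with a change of -1.91 ± 0.06. The 2 TATA-binding proteins both fell, with -4.17 ± 0.16 for tbpl2, the oocyte form, and -0.82 ± 0.05 for tbp. chek1, a checkpoint kinase that limits transcription in cleaving embryos, fell, with a change of -1.83 ± 0.07.

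Of 69 tested factors that remove or store mRNA, 36 rose (52.2%) and 28 fell (median 0.24), beside 40.7% and 40.5% of all genes. With library totals 27 rose and 37 fell, and the median turned to -0.31, beside 4382 rises, 8102 falls and a median of -0.59 for all genes. cnot1, the scaffold of the CCR4-NOT deadenylase, rose by 1.75 ± 0.05 (adjusted p = 5.51e-18), whereas its catalytic members cnot6b and cnot7 fell, with changes of -2.13 ± 0.06 and -1.58 ± 0.18. parn, another deadenylase, fell, with a change of -1.85 ± 0.05. ythdf2, a reader of N6-methyladenosine, had 137, 129 and 137 CPM at 1 hpf and 507, 474 and 521 CPM at 6 hpf, a rise of 1.90 ± 0.05. The AU-rich element binding zinc finger gene cth1 had 999.8, 1002 and 956 CPM at 1 hpf and 222, 219 and 212 CPM at 6 hpf, a change of -2.18 ± 0.04 (adjusted p = 1.47e-20), and its relative zfp36l2 fell, with a change of -2.49 ± 0.12. The decapping genes dcp2 and dcp1a changed by 1.62 and -1.73, xrn1, the 5′ to 3′ exonuclease, by 0.86, and tnrc6a, which links Argonaute to deadenylation, by 1.02. Among RNA-binding proteins of the list, elavl1a rose by 1.64 ± 0.04, igf2bp1 by 3.11 ± 0.09 and igf2bp3 by 0.92 ± 0.04, whereas lsm14b, which stores mRNA in the oocyte, fell, with a change of -2.45 ± 0.06 (adjusted p = 3.76e-19).

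Genes that act on stalled ribosomes, the substrate of Znf598, were followed in its absence. Of 30 tested members, 18 rose and 8 fell, beside 40.7% and 40.5% of all genes. Their median was 0.49, against -0.03 for all genes. With library totals 10 rose and 13 fell, beside 4382 rises and 8102 falls of all genes. The median then turned to -0.06, which stayed above the -0.59 of all genes. rack1, a ribosomal protein at the interface of collided ribosomes, had 210.3, 222 and 222 CPM at 1 hpf and 526, 597 and 576 CPM at 6 hpf, a rise of 1.38 ± 0.05 (adjusted p = 6.19e-17). edf1, a collision sensor, and gcn1, which activates the kinase Gcn2 on collided ribosomes, rose by 1.58 ± 0.06 and 1.22 ± 0.05. The rescue factors pelo and abce1 rose by 1.05 ± 0.07 and 1.34 ± 0.05. ascc2 of the complex that splits collided ribosomes fell, with a change of -1.34 ± 0.07 (adjusted p = 3.62e-13), while its helicase ascc3 changed by 0.53 ± 0.08, which became -0.02 with library totals. ltn1 of the quality control complex for nascent chains changed by 0.46 ± 0.05, and by -0.10 with library totals. tcf25 of the same complex fell, with a change of -1.20 ± 0.07. The translational repressor gene gigyf1 (ENSDARG00000078691) rose by 1.79 ± 0.06. A second gene of that symbol (ENSDARG00000098932) changed by 0.67, and by 0.11 with library totals, where it was not called. Changes of -0.19 and -0.38 were fitted for gigyf2 and eif4e2, and neither was called with DESeq2. For the integrated stress response, the kinase eif2ak3 had 144, 171 and 162 CPM at 1 hpf and 30.7, 32.5 and 29.9 CPM at 6 hpf, a change of -2.36 ± 0.07 (adjusted p = 5.42e-18). Its transcription factor atf4a had 4.95, 7.43 and 3.87 CPM at 1 hpf and 133, 149.7 and 131 CPM at 6 hpf, a rise of 4.66 ± 0.10 (adjusted p = 9.30e-17), and ddit3 rose by 4.94 ± 0.50 (adjusted p = 9.35e-07). The wild-type changes of these last 3 genes were -2.35, 4.87 and 5.29, and none of the 30 members had a called interaction (0.208% of all genes tested had one).

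The rises of largest fold were of genes at or near 0 counts at 1 hpf. hspb1, a small heat shock protein, had 0.142, 0.138 and 0.079 CPM at 1 hpf and 2128, 2287 and 2228 CPM at 6 hpf, at least 9341-fold higher at 6 hpf. slc7a8 and slc3a2, the light and heavy chains of an amino acid transporter, rose by 12.02 ± 0.09 and 9.43 ± 0.08, and the cytolinkers evpla and eppk1 by 12.43 ± 0.11 and 10.86 ± 0.09. polr3gla, a subunit of RNA polymerase III, was at least 3144-fold higher. These 6 rises had the lowest adjusted p (1.23e-27 to 9.62e-26). Of them, hspb1, slc7a8, evpla and polr3gla were not over 1 unscaled CPM in any library at 1 hpf. They passed the limit only through 6 hpf, so their calls are no result of their own. The 5 rises of largest fitted fold were of mxtx1, ctsll, emilin2, sebox and plcd1 (ENSDARG00000059123), each with 0 counts in the 3 libraries at 1 hpf. These genes too passed the limit only through 6 hpf, and their calls are no result either. mxtx1, a homeobox gene of the YSL, reached 241, 260.1 and 248 CPM at 6 hpf, at least 1054-fold above the floor at 1 hpf. The largest gains in CPM were of genes already present at 1 hpf. eef1a1l1, a translation elongation factor, had 859.7, 865 and 813 CPM at 1 hpf and 11470.0, 11684 and 12098 CPM at 6 hpf. hmga1a, a chromatin protein, rose from 701 ± 19.3 to 7484 ± 50.3 CPM, and the zinc finger gene sall4 from 976 ± 37.7 to 6961 ± 419 CPM (SD, n = 3). khdrbs1a and cirbpb, both RNA-binding, rose by 2.72 ± 0.04 and 3.35 ± 0.04.

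**Figure D3:**
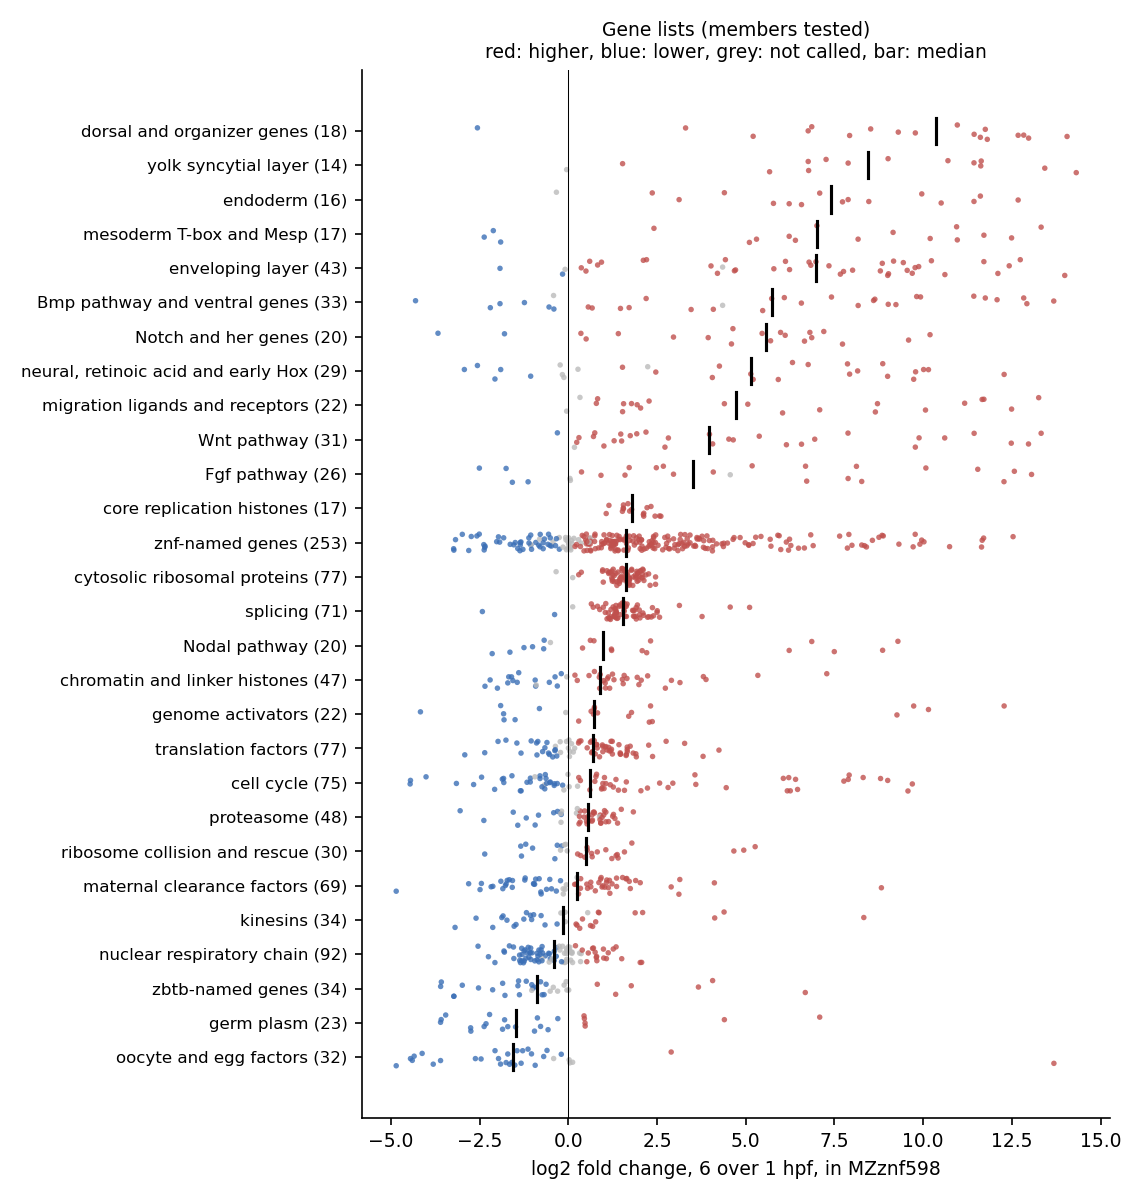
Log2 fold change from 1 to 6 hpf in MZznf598 (horizontal axis) for the tested members of 28 gene lists, sorted by the list median (black bar), with the number tested in brackets. Points are genes, red where called higher, blue where called lower and grey where not called. Fitted medians run from -1.55 for oocyte and egg factors to 10.37 for dorsal and organizer genes, and with bounds the latter is 7.25, below 7.33 for the YSL.

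Signals that pattern the embryo were switched on across the axes, beside 40.7% of all genes that rose and 40.5% that fell. A member not over 1 unscaled CPM in any library of 1 stage passed the limit only through the other stage. Its call is no result of its own, here and in the lists that follow. Members at or under 3 counts in every library of 1 stage were 2 of 20 for Nodal, 12 of 33 for Bmp and 14 of 18 for the organizer. For Wnt they were 8 of 31 and for Fgf 8 of 26. These numbers leave out members with more counts that were still under 1 CPM throughout 1 stage, such as ndr2 and lft2 at 1 hpf. Of the Nodal pathway, which specifies mesoderm and endoderm, 13 of 20 tested members rose and 6 fell (median 0.97). With library totals 10 rose and 8 fell (median 0.41), beside 4382 and 8102 of all genes (median -0.59). The ligand ndr2 had 0.495, 0.275 and 0.237 CPM at 1 hpf and 58.9, 66.0 and 65.3 CPM at 6 hpf, a rise of 7.50 ± 0.18 (adjusted p = 3.07e-19), and ndr1 rose by 2.08 ± 0.39 to 3.27 ± 0.781 CPM. The inhibitors lft1 and lft2, which are targets of Nodal, had 51.7, 51.1 and 56.8 CPM and 108, 84.7 and 93.6 CPM at 6 hpf against at most 0.425 CPM in any library at 1 hpf. The coreceptor gene tdgf1 rose by 2.21 ± 0.05. The receptor gene acvr2a and the transducer gene smad2 fell, with changes of -1.01 ± 0.05 and -1.25 ± 0.06. mixl1, a Nodal target, had 6.51, 5.44 and 6.95 CPM at 1 hpf and 484, 462 and 463 CPM at 6 hpf.

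Of the Bmp pathway, which patterns ventral tissue, 25 of 33 tested members rose and 6 fell, with a median of 5.73 as fitted and 4.76 with genes at the floor set to their bound. The ligand bmp7a had 0.92, 1.38 and 1.19 CPM at 1 hpf and 204, 194 and 205 CPM at 6 hpf, and bmp4 rose by 8.17 ± 0.24 (adjusted p = 8.21e-15). The ventral repressors vox, vent and ved reached 480.0 ± 18.5, 158 ± 13.7 and 234 ± 9.57 CPM (SD, n = 3) from at most 0.138 CPM in any library. On the dorsal side, 17 of 18 organizer genes rose (median 10.37, or 7.25 with bounds). chrd, the secreted Bmp antagonist, had 0.142, 0.206 and 0.079 CPM at 1 hpf and 543, 523 and 566 CPM at 6 hpf, at least 2295-fold higher at 6 hpf. noto, which specifies the notochord, and gsc, an early organizer gene, were at least 552-fold and at least 52.9-fold higher. dharma, a direct target of maternal Wnt signalling, reached 7.17, 6.88 and 9.28 CPM from 0 counts. The exception was otx1, which fell from 187 ± 1.88 to 31.5 ± 3.91 CPM, a change of -2.57 ± 0.07.

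Wnt genes rose for 29 of 31 tested members (median 3.98, or 3.81 with bounds) and fell for axin1 alone, with a change of -0.31 ± 0.05 (adjusted p = 3.34e-06), which was not called without 1 of the 6 hpf libraries (-0.16 to -0.14, adjusted p = 0.0237 to 0.0271). ctnnb1, the β-catenin gene, had 432, 432 and 453 CPM at 1 hpf and 1933, 2051 and 2011 CPM at 6 hpf, and sp5l, a target of Wnt, was at least 881-fold higher. Fgf genes rose for 19 of 26 and fell for 4 (median 3.52). The ligands fgf3 and fgf17 reached 58.4, 63.6 and 60.7 CPM and 80.5, 70.7 and 72.6 CPM from 0 counts, fgf24 rose by 2.68 ± 0.19, and the receptor gene fgfr4 was at least 3046-fold higher. The feedback inhibitors moved apart. dusp6 had 0.142, 0.069 and 0 CPM at 1 hpf and 91.0, 96.5 and 86.7 CPM at 6 hpf, and spry2 and spry4 rose by 4.08 ± 0.10 and 5.18 ± 0.13, whereas il17rd fell, with a change of -1.14 ± 0.08.

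The germ layers followed, beside 40.7% of all genes that rose and 40.5% that fell. Members at the floor at 1 stage were 6 of 17 for mesoderm, 5 of 16 for endoderm and 8 of 22 for migration. Their calls are no result of their own. Of 17 mesoderm genes 14 rose and 3 fell (median 7.0, or 6.40 with bounds). tbx16 had 0.354, 0.069 and 0.079 CPM at 1 hpf and 1929, 1833 and 1832 CPM at 6 hpf, and tbxta, the Brachyury gene, had 0.566, 0.344 and 0 CPM at 1 hpf and 639, 677 and 637 CPM at 6 hpf. Neither exceeded 0.566 CPM in any library at 1 hpf, so both passed the limit only through 6 hpf and their calls are no result either. Their fitted rises were 13.33 ± 0.11 and 10.96 ± 0.21 (adjusted p = 3.01e-22 and 4.92e-08). mespaa, a somite gene, reached 1.99 ± 0.46 CPM. Of 16 endoderm genes 15 rose and none fell (median 7.41, or 6.83 with bounds). sox32, the endoderm determinant, had 0.212, 0.138 and 0.079 CPM at 1 hpf and 225, 243 and 219 CPM at 6 hpf, and its target sox17 reached 12.9 ± 2.05 CPM (SD, n = 3). gata5 and gata6 rose by 9.96 ± 0.14 and 7.89 ± 0.08. Genes of cell migration rose for 20 of 22 and fell for none (median 4.73). apela, the Toddler peptide, had 0 counts at 1 hpf and 31.2, 27.2 and 26.1 CPM at 6 hpf, and its receptors aplnra and aplnrb were at least 861-fold and at least 885-fold higher. cdh1, the E-cadherin gene, rose by 0.82 ± 0.04, and has2, a hyaluronan synthase, was at least 1491-fold higher.

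The extraembryonic layers were marked by their own genes, beside 40.7% of all genes that rose and 40.5% that fell. Members at the floor at 1 stage were 12 of 43 for the EVL and 7 of 14 for the YSL. Their calls are no result of their own. EVL genes rose for 39 of 43 tested members and fell for tp63 and epcam (median 6.98, or 6.23 with bounds). The keratins krt4 and krt18a.1 reached 625, 666 and 700.1 CPM and 558, 607 and 620.0 CPM. klf17 and grhl3, transcription factors of the layer, rose by 8.79 ± 0.09 and 9.87 ± 0.17. epcam changed by -0.17 ± 0.05 (adjusted p = 0.00427), and the sign turned without the 6 hpf replicate 1 or 2 (0.0014 and 0.03, neither called). tp63, which marks the epidermis below the EVL in later stages, fell from 2.53 ± 0.157 to 0.677 ± 0.447 CPM, and its change was not called without the 6 hpf replicate 2 (-1.36, adjusted p = 0.0141). YSL genes rose for 13 of 14 and fell for none (median 8.45, or 7.33 with bounds). hnf4a, a regulator of lipid genes, and the sulfate carrier gene slc13a4 were at least 425-fold and at least 1131-fold higher. Summed over the 48 EVL genes, the level went from 1384 to 1529 CPM per library at 1 hpf to 9543 to 10222 at 6 hpf, and over the 16 YSL genes from 77.1 to 95.7 to 6018 to 6222 CPM.

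Genes of later development were switched on in part, beside 40.7% of all genes that rose and 40.5% that fell. Members at the floor at 1 stage were 5 of 20 for the Notch and her genes. For the neural, retinoic acid and early Hox genes they were 8 of 29. The calls of members at the floor are no result of their own. Notch and her genes rose for 18 of 20 and fell for neurog1 and jag2b (median 5.58, or 4.66 with bounds). her1 and her7, cyclic genes of the segmentation clock, rose by 6.11 ± 0.17 and 4.64 ± 0.13, and her5 by 7.73 ± 0.18. jag2b, a Notch ligand, fell, with a change of -1.80 ± 0.11, and neurog1, a proneural factor, went from 4.25, 5.71 and 3.95 CPM to 0.167, 0.439 and 0.428 CPM. Neural, retinoic acid and early Hox genes rose for 19 of 29 and fell for 5 (median 5.14, or 3.95 with bounds). irx7 was at least 476-fold higher. cyp26a1, which degrades retinoic acid, had 32.4, 39.0 and 20.3 CPM at 1 hpf and 158, 129 and 142 CPM at 6 hpf. The stages did not overlap, yet its change of 2.24 ± 0.29 (adjusted p = 0.0133) was not called in the paired fit, and it was called at 2.21 without the block (adjusted p = 0.000513). Of 15 hox genes 1 was tested. Markers of differentiated tissue were mostly below the limit, with 13 of 52 tested, of which 6 rose and 3 fell (median 2.58). Their summed level was 29.5 to 34.3 CPM at 1 hpf and 148 to 230.4 CPM at 6 hpf, most of it from tfa, the transferrin gene (116 ± 18.4 CPM at 6 hpf).

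Of 75 cell cycle genes 40 rose (53.3%) and 29 fell (median 0.61), beside 40.7% and 40.5% of all genes. With library totals 35 rose and 36 fell (median 0.05), beside 4382 and 8102 of all genes (median -0.59). ccnd1, cyclin D1, had 5.59, 5.78 and 1.98 CPM at 1 hpf and 2109, 1938 and 1989.7 CPM at 6 hpf. The stages were far apart, but the 1 hpf libraries differed among themselves, and the change was 8.80 ± 0.33 (adjusted p = 0.00108). Without replicate 1 or 2 of either stage it was 8.89 to 9.22 and not called (adjusted p = 0.0138 to 0.0341). ccne2, an S-phase cyclin, rose by 7.89 ± 0.26 (adjusted p = 8.73e-05), and by 8.20 without the 6 hpf replicate 2 (adjusted p = 0.0149). The maternal cyclin genes ccna1 and ccnb2 fell, with changes of -1.17 ± 0.05 and -1.33 ± 0.05. myc (ENSDARG00000007241) fell, with a change of -3.16 ± 0.11, whereas its relatives mycn and mych rose by 6.06 ± 0.12 and 6.25 ± 0.06.

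For several families a form of the egg fell while a relative rose. These pairs were chosen with their values known and are a description. wee2, the oocyte kinase, had 94.9, 92.4 and 87.9 CPM at 1 hpf and 32.7, 26.0 and 32.7 CPM at 6 hpf, and wee1 had 12.1, 9.77 and 9.80 CPM at 1 hpf and 139, 130.1 and 112 CPM at 6 hpf. mcm3l, a form of the replicative helicase subunit, went from 105 ± 11.4 to 19.1 ± 5.99 CPM and mcm3 from 0.464 ± 0.078 to 392 ± 14.6 CPM (SD, n = 3). The call of mcm3l was lost without replicate 1 at 1 or at 6 hpf (-2.45 and -2.22, adjusted p = 0.0828 and 0.0768). The embryonic poly(A)-binding protein gene pabpc1l fell, with a change of -1.90 ± 0.07 and pabpc1a rose by 1.71 ± 0.04. The nuclear lamina had lmnl3 down, with a change of -1.60 ± 0.06, and lmnb2 and lmna up by 2.73 ± 0.05 and 3.88 ± 0.09. Of the nucleoplasmins, npm2a fell, with a change of -0.94 ± 0.14 and npm1a rose by 1.94 ± 0.05. ccna2 rose by 0.93 ± 0.04 beside the fall of ccna1, and the claudin gene cldne, a gene of the EVL, was at least 2231-fold higher beside the fall of cldnd. Levels of different genes are not compared here.

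**Figure D4:**
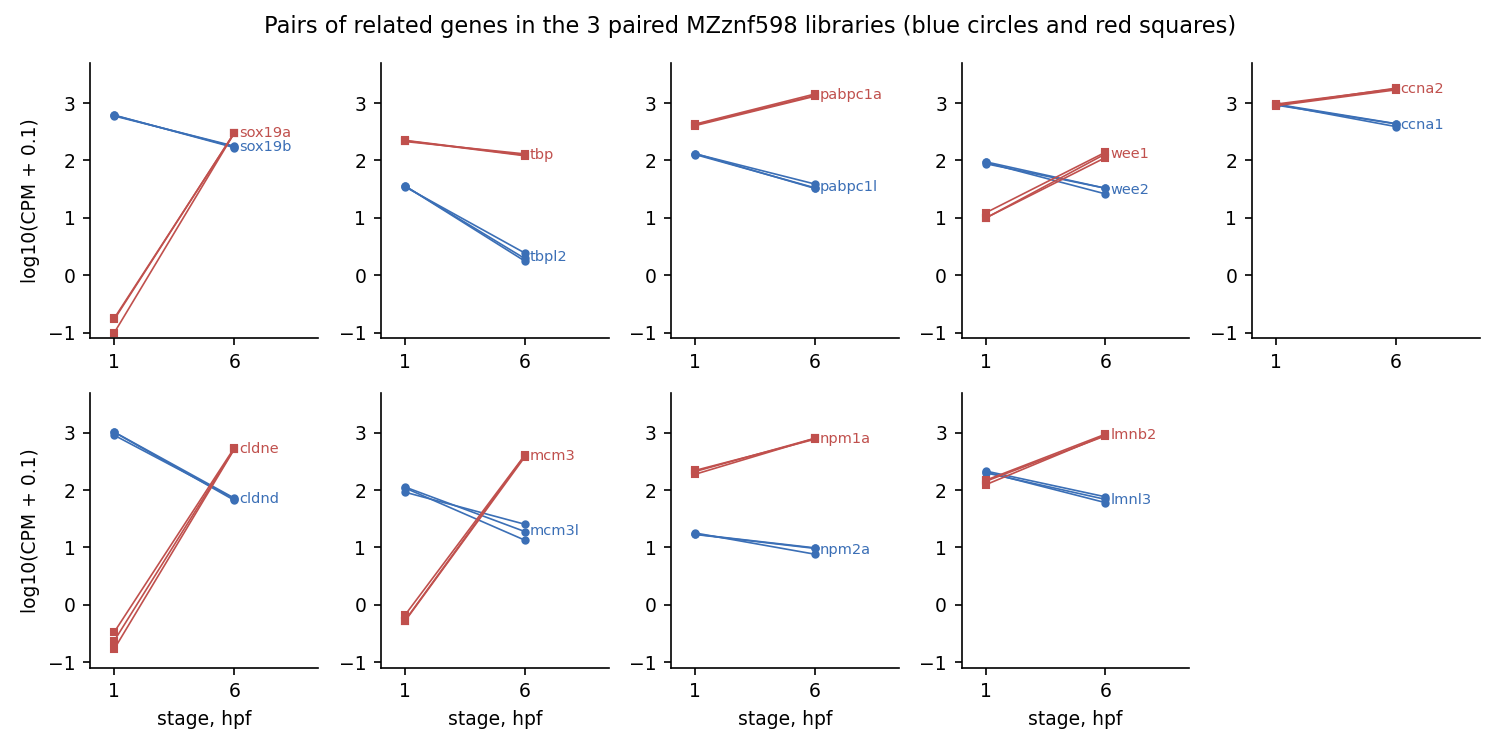
Level in log10(CPM + 0.1) at 1 and 6 hpf for 9 pairs of related genes, with a line for each of the 3 pairs of MZznf598 libraries. Blue circles mark the gene listed first (sox19b, tbpl2, pabpc1l, wee2, ccna1, cldnd, mcm3l, npm2a and lmnl3), which fell in each pair, and red squares its relative, which rose in each except tbp.

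Gene families of basic function differed in direction, beside 40.7% of all genes that rose and 40.5% that fell. Of 77 tested cytosolic ribosomal protein genes 75 rose and none fell (median 1.63), for example rps15a by 2.46 ± 0.06. With library totals 73 rose and 4 fell. Of 71 splicing genes 68 rose and 2 fell (median 1.54), with srsf5a from 32.0, 30.5 and 30.6 CPM to 1101, 1016 and 1095 CPM. All 17 core histone genes rose (median 1.78), among them hist2h3c by 2.33 ± 0.04, and h3f3a, a gene for the replacement histone H3.3, rose by 3.14 ± 0.04. In contrast, 47 of 92 nuclear genes of the respiratory chain fell and 19 rose (median -0.40), and 100 of 261 solute carrier genes fell and 101 rose, close to the shares of all genes. Translation factors rose for 47 of 77 and fell for 19 (median 0.69), proteasome genes for 32 and 10 of 48 (median 0.56) and chromatin genes for 30 and 15 of 47 (median 0.90). With library totals the rises and falls were 33 and 30 for translation factors (median 0.13) and 16 and 18 for the proteasome (median 0.0016). They were 26 and 19 for chromatin (median 0.34). Of all genes 4382 rose and 8102 fell with that scaling (median -0.59). The balance of rises and falls thus moved with the scaling for all genes too, and each of these list medians stayed above that of all genes. Of 9 tested genes used as reporter targets of miR-430, a zygotic microRNA that clears maternal mRNA, 6 rose and 3 fell (median 6.79). The wild-type median was 5.93. Rising members such as lft2, ndr2 and cxcl12 had means of only 0.19, 0.34 and 0.096 CPM at 1 hpf in MZznf598. Their rises therefore do not bear on maternal clearance. The paper reported that decay by the zygotic pathway, exemplified by miR-430, was unaffected by the loss of Znf598. In the chromatin list the methyltransferase genes parted, with dnmt3bb.2 up by 2.90 ± 0.06 and dnmt1 down, with a change of -2.0 ± 0.04. The gene of the oocyte linker histone in the same list, h1m, had 1233, 1273 and 1186 CPM at 1 hpf and 407, 337 and 387 CPM at 6 hpf. Zinc finger mRNAs, whose translation the study examined, were counted by symbol. Of 253 genes named znf 185 rose (73.1%) and 45 fell (17.8%, median 1.64), for example znf281 (ENSDARG00000000567) by 3.09 ± 0.06. The wild-type median was also 1.64 over 246 genes, and 35 of the 253 were at the floor at 1 stage. The paper instead compared the genotypes at 6 hpf, over genes annotated with the C2H2-type zinc finger domain. It reported more of those genes up-regulated than down-regulated in MZznf598. That is another measure and another set of genes, so the like medians here do not address it. Of this list, znf1185 and znf236 had a called interaction, 2 of 262 tested for it, beside 0.208% of all genes. znf236 is not one of the named genes here. The paper followed it by qRT-PCR and reported that its decrease depended on Znf598 and its RING domain in rescued embryos. In these data znf236 changed by 0.94 in MZznf598 and -0.69 in wild type. Its interaction was 1.62 ± 0.16 (adjusted p = 0.00435), and this call was not followed in the other fits. Of 34 named zbtb 6 rose (17.6%) and 20 fell (58.8%, median -0.88), for example zbtb18 with -2.99 ± 0.10. Kinesins fell for 16 of 34 (47.1%) and rose for 14 (41.2%, median -0.15), near the shares of all genes. kif2c, a kinesin of the spindle, had a change of -1.73 ± 0.05.

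Cells other than the embryo's own were checked by markers of the ovary. Of 17 identifiers 2 passed the limit and 7, among them foxl2, had 0 counts in all 6 libraries. The 7 include the yolk protein genes vtg1 and vtg2, which are not specific markers of ovary cells. The 2 were the steroid synthesis genes cyp11a1 and cyp17a1, at 353 ± 16 and 80.1 ± 22.5 CPM at 1 hpf, and both fell, with changes of -0.92 ± 0.05 and -0.96 ± 0.12, the latter not called without the block (-0.99, adjusted p = 0.0153). The summed level of the 17 was 392 to 468 CPM at 1 hpf and 225 to 233 CPM at 6 hpf. The part of RNA carried over from the ovary was not tested. The 13 protein genes of the mitochondrial genome had 0 counts in all 12 libraries, so mitochondrial RNA could not be followed.

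The same change was then fitted in the wild-type libraries, which are separate from the MZznf598 libraries. There 4853 of 15036 genes rose (32.3%) and 4437 fell (29.5%). Without replicate 3 at 1 hpf 5269 rose and 5050 fell, without replicate 3 at 6 hpf 4451 and 5000, and without replicate 2 at 6 hpf 2739 and 2923. Of the MZznf598 rises of at least 2-fold, 3484 were also called at least 2-fold up in wild type, which is 85.1% of the 4096 in MZznf598 and 89.6% of the 3889 in wild type. Of the falls of at least 2-fold, 3406 were shared, 80.6% of 4227 in MZznf598 and 90.4% of 3769 in wild type. The median change of the rising class was 2.79 in MZznf598 and 2.76 in wild type over the genes tested in both, and that of the falling class was -1.84 and -1.82. The wild-type sign was the same for 3883 of 3903 rising and 4118 of 4138 falling genes. Among all genes called in MZznf598, 14 were called the other way in wild type (8 of those up and 6 of those down). Without both wild-type replicates of number 3, over the same genes, 3475 rises (84.8% of the MZznf598 list and 88.7% of the wild-type list) and 3431 falls (81.2% and 89.9%) were shared. The wild-type medians of these classes were then 2.59 and -1.72, the signs were the same for 3870 and 4123 genes, and 19 of the genes called up and 15 of those called down were called the other way. Replicate spread was larger in wild type (biological coefficient of variation 0.167 against 0.0547), so fewer calls there do not show a smaller change.

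**Figure D5:**
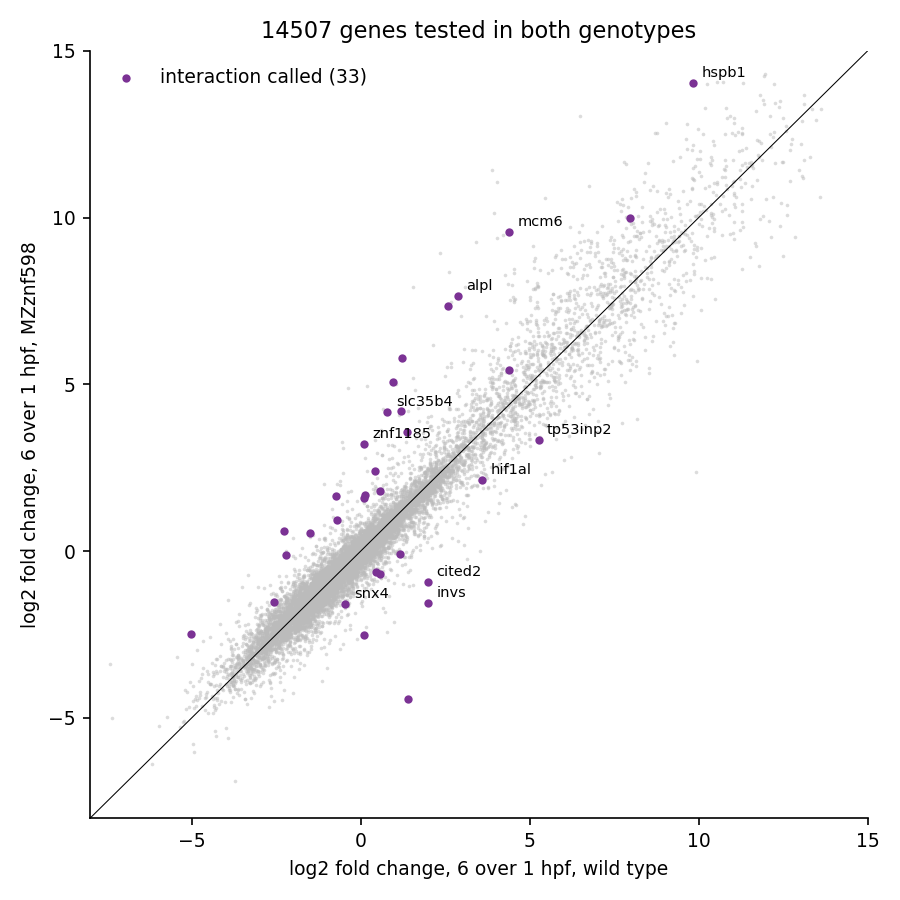
Log2 fold change from 1 to 6 hpf in MZznf598 (vertical axis) against that in wild type (horizontal axis) for 14507 genes tested in both, with the line of equal change. Purple points are the 33 genes with a called interaction, and 10 of them are named, such as alpl above the line and cited2 and invs below it.

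The interaction tested the difference itself over 15829 genes, and 23 genes were called positive (0.145%) and 10 negative (0.0632%). Without the wild-type replicate 3 at 1 hpf the counts were 310 positive and 397 negative, and without the one at 6 hpf 298 and 393. Without the wild-type replicate 2 at either stage 4 positive and 3 negative were left, and without any single MZznf598 library 2 or 3 positive and 0 to 4 negative. alpl, an alkaline phosphatase, had 0.495, 0.619 and 0.395 CPM at 1 hpf and 103, 96.0 and 112 CPM at 6 hpf in MZznf598 and 8.72, 11.5 and 10.5 CPM at 1 hpf and 73.9, 76.8 and 73.9 CPM at 6 hpf in wild type. The 6 hpf levels and the 1 hpf levels both lay apart between the genotypes, and the interaction was 4.75 ± 0.23 (adjusted p = 1.70e-04). cited2, a transcriptional cofactor, fell in MZznf598 from 22.3, 22.1 and 21.9 CPM to 10.3, 10.5 and 13.6 CPM, and in wild type it rose, with 32.1, 30.4 and 18.2 CPM at 1 hpf and 139, 100.2 and 80.1 CPM at 6 hpf. invs, which encodes inversin of the primary cilium, also had opposite directions, with 34.0, 29.9 and 35.4 CPM at 1 hpf and 10.3, 8.92 and 14.1 CPM at 6 hpf in MZznf598 and 11, 17.2 and 13.9 CPM at 1 hpf and 64, 51.8 and 50.9 CPM at 6 hpf in wild type. Their interactions were -2.94 ± 0.19 and -3.58 ± 0.27 (adjusted p = 5.51e-04 and 0.00145). hspb1, the leading rise in MZznf598, had 1.65, 2.85 and 3.52 CPM at 1 hpf and 2104, 2551 and 2471 CPM at 6 hpf in wild type. Its 6 hpf levels overlapped between the genotypes and its 1 hpf levels did not, with a fitted interaction of 4.2 (adjusted p = 0.00201). As hspb1 was at or under the floor at 1 hpf in MZznf598, this value depends on the fit, and the floor gives a difference of at least 3.363. slc35b4, a nucleotide sugar carrier, and znf1185 rose by 4.16 ± 0.16 and 3.21 ± 0.23 in MZznf598 and by 0.79 (adjusted p = 0.00529) in wild type for the former, while znf1185 had a wild-type change of 0.10 that was not called. At 1 hpf slc35b4 had a mean of 2.35 CPM in MZznf598 and 38.5 CPM in wild type, and znf1185 had 1.25 and 17.85 CPM. At 6 hpf both were still lower in MZznf598. The means were then 42.3 against 64.7 CPM for slc35b4 and 11.7 against 19.1 CPM for znf1185. si:ch211-86h15.1 had an interaction of 1.96 ± 0.12, and tp53inp2, hif1al and snx4 had -1.95 ± 0.16, -1.48 ± 0.13 and -1.14 ± 0.11. In both genotypes tp53inp2 and hif1al rose, by 3.32 and 2.12 in MZznf598 and by 5.26 and 3.60 in wild type. snx4 fell in both, with changes of -1.58 in MZznf598 and -0.45 in wild type. The mean of hif1al at 1 hpf was 101 CPM in MZznf598 and 28.4 CPM in wild type, and at 6 hpf 439 and 338 CPM. mcm6 (ENSDARG00000057683), a subunit of the replicative helicase, was the 1 of 76 cell cycle genes tested with a called interaction (0.208% of all genes). It had 0.071, 0.138 and 0.316 CPM at 1 hpf and 129.9, 134 and 153 CPM at 6 hpf in MZznf598 and 16.6, 6.85 and 8.67 CPM at 1 hpf and 251, 261 and 145 CPM at 6 hpf in wild type. The mcm6 interaction was 5.18 ± 0.57 (adjusted p = 0.00616). When 1 library at a time was left out, alpl stayed called in 12 of 12 fits, and the other 10 genes named here lost the call in at least 2, with an adjusted p of up to 0.0833 for mcm6 without the wild-type replicate 3 at 1 hpf. With a block per replicate number, the partner of a library left out no longer informs the stage change. These 12 fits are thus not separate checks. Reads were kept only with at most 1 mismatch to the reference, and the part that sequence differences between the line and AB play in these values was not tested.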

How the data were processed

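Deposited read counts per gene were analyzed, 1 table per library. The authors removed ribosomal RNA, sequenced stranded single-end libraries, aligned reads to GRCz11 with STAR 2.7.8a, kept unique alignments with at most 1 mismatch and counted with featureCounts. Its strand setting and the annotation release are not given in the sources used here. Overlapping genes and near-identical copies can therefore lose or share reads.

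Counts were fitted in edgeR 4.0.16 (R 4.3.3) with TMM scaling, robust quasi-likelihood, stage and a block for replicate number, over genes above 1 CPM in 3 or more of the 6 libraries. Tests were 2-sided, p-values received Benjamini-Hochberg adjustment across the genes tested, and the threshold was 0.01. The SE is the absolute log2 change divided by the square root of F. The interaction used all 12 libraries and a block per replicate number within genotype. The requested comparison pairs libraries by number, and same-numbered MZznf598 libraries deviated together (correlations over genes 0.181 to 0.251, against -0.17 to -0.01 for different numbers). Deviations were taken from the mean of each group, so positive values for same numbers force negative ones for different numbers on average. Part of this contrast is therefore arithmetic. The fit was tested on simulated data. No genome or sequence table was used.

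A name table gave symbols for 23608 of 25432 identifiers. Lists were matched by symbol, synonym or name without its a or b suffix, so copies of a family may be joined. Members and lists were chosen with earlier results of these data known. Named genes are znf598, the 6 up and 6 down of lowest adjusted p (at least 2-fold, no overlap), the 5 and 5 of largest fold (at least 10 CPM) and of largest CPM difference, up to 4 and 4 per list of lowest adjusted p with members whose role orders the account, and the 5 and 5 interactions of lowest adjusted p. Not all are printed. Alternatives were other scalings (relative log expression, upper quartile, library totals), filters, DESeq2 1.42.0, a likelihood ratio test, fits without the block, tests against a fold, a threshold of 0.05 and leaving out each library. The last kept the block, so leaving out 1 library also took its partner out of the paired stage change.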

Additional observations from a re-analysis of the deposited data

Results flagged for a closer look

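For 11 of the genes named, the change from 1 to 6 hpf differed between MZznf598 and wild type by the interaction test. The difference (MZznf598 minus wild type, log2) was positive for mcm6 (5.18), alpl (4.75), hspb1 (4.2 as fitted, at least 3.363 from the floor of 3 counts), slc35b4 (3.37), znf1185 (3.11) and si:ch211-86h15.1 (1.96). It was negative for invs (-3.58), cited2 (-2.94), tp53inp2 (-1.95), hif1al (-1.48) and snx4 (-1.14). Of these, invs and cited2 had opposite directions in the genotypes, tp53inp2 and hif1al rose in both, and snx4 fell in both. With 3 libraries per group, single libraries were not screened for extreme values.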

How the results depend on the processing

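For the 320 gene-level results, the direction held in every alternative that tested the gene except for 6 genes. Not every alternative tested each gene. Without the MZznf598 6 hpf replicate 1, 228 results were unchanged in direction and call, 17 lost the call and 1 turned. The others were not tested there. The limit still asked for 3 libraries, so genes over 1 CPM only at 6 hpf, such as hspb1 and chrd, dropped out. Their MZznf598 rises were therefore never tested without a 6 hpf library. Likewise, genes over 1 CPM only at 1 hpf were not tested without a 1 hpf library. With library totals ltn1 (-0.10), celf1 (-0.085), ddx4 (-0.11), nanog (-0.27) and ascc3 (-0.025) turned, and epcam turned without the MZznf598 6 hpf replicate 1 (0.0014) or 2 (0.035). Over the fits without 1 library epcam ranged from -0.28 to 0.035. A call was lost under at least 1 alternative for 60 genes and gained for 3 (cyp26a1, actc1b and the interaction of znf598). The cause was not tested.

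The numbers of MZznf598 rises and falls were 3582 and 3218 when tested against a 2-fold change, against 6085 and 6063, and 6034 and 4832 with DESeq2. Without 1 library they were 4695 to 5632 and 5095 to 5501, where 13315 to 14312 genes were tested. For wild type the ranges were 2739 to 5269 rises and 2923 to 5050 falls. Leaving out both wild-type libraries with number 3, an alternative chosen after seeing the data that leaves 1 residual degree of freedom, gave 5419 and 5129. Without the replicate block MZznf598 had 5923 rises and 5841 falls, the calls of cyp17a1, eif4e2 and epcam were lost, and cyp26a1 and the interaction of znf598 were called. No other named gene changed its call without the block.

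The interaction was the least stable count. Its 23 positive and 10 negative genes became 49 and 37 without the abundance filter, 104 and 68 with DESeq2, 201 and 176 with the likelihood ratio test, 45 and 26 without the replicate block, 83 and 56 at a threshold of 0.05, 9 and 3 against a 1.5-fold change and 5 and 2 against a 2-fold change. Without 1 library they ranged from 2 to 310 and from 0 to 397.

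Genes at a few counts at 1 hpf are limited by depth, since 1 count decides their level there. Small called changes depend on the scaling, as the median of all genes was -0.59 with library totals and 0.10 with relative log expression. With 3 libraries per group, and 1 mutant line, the p-values do not cover variation between lines.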

Other observations

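Some genes had no counts at all in 1 genotype. Of the genes tested in wild type, 8 had 0 counts in all 6 MZznf598 libraries. One was ackr3 (ENSDARG00000058179), a scavenger receptor for the chemokine Cxcl12, which had 168, 156 and 95 counts in the wild-type libraries at 6 hpf and at most 1 count at 1 hpf. Another was cfap20dc, with 277, 296 and 278 counts in wild type at 1 hpf and 236, 245 and 232 at 6 hpf. In the other direction, 11 genes tested in MZznf598 had 0 counts in all 6 wild-type libraries, among them kdelr3 (ENSDARG00000104519), an endoplasmic reticulum retention receptor, with 33, 20 and 38 counts at 1 hpf and 12, 12 and 19 at 6 hpf. These genes were named after their values were seen. Absence here is relative to reads aligned with at most 1 mismatch, and the part of sequence differences was not tested.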
